A study of Gallus gallus with 12 samples.

Results

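Among the genes with many reads in the interdigital tissue of the chick foot, 55 were a little lower beside a Noggin bead than beside a control bead, out of 1219 genes averaging 100 CPM or more and 30108 genes in the table. CPM is the number of reads of a gene per 1000000 reads of its library. The 55 members were chosen by their values in replicate numbers 1 to 5: a mean of at least 100 CPM over these 10 libraries, every Noggin library below every PBS library, and a difference of the group means of at least -1 on the scale of log2(CPM + 1), which is a fall of at most about 2-fold. Their fall in these numbers is therefore a description and not a finding, and no test is attached to it. The word "slightly" fits the lower part of the range only, since single members were lower by 10.3% to 49.2% of their PBS level.

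Each library held RNA of interdigital region 3 (ID3) of the hindlimb, dissected 12 h after a bead had been implanted at Hamburger-Hamilton stage 30. The bead had been soaked in Noggin in 6 libraries and in phosphate-buffered saline (PBS), the control, in the other 6, with the 2 kinds of bead on opposite sides. No genotype, strain or sex is given in the labels, and neither is the Noggin dose, nor whether each replicate number stands for 1 embryo. Libraries were made with Lasy-Seq, which reads transcript ends, and held 1624309 to 3513398 reads. The tissue could not be checked against its defining markers, since the gene rows carry identifiers without symbols and none of them matched the reference gene table.

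The interdigit is the soft tissue between the forming digits, and in the chick foot most of it is removed by programmed cell death. Bone morphogenetic proteins (BMPs) are secreted ligands that bind paired serine/threonine kinase receptors and act through SMAD transcription factors, and in the interdigit they are known for promoting cell death. Noggin is a secreted antagonist that binds BMPs outside the cell and keeps them from their receptors, so a Noggin bead lowers BMP signalling around it. A library has a fixed total, so the CPM of a gene is a share: a lower CPM can reflect fewer transcripts of that gene or more transcripts of others. In bulk tissue, fewer cells of a type and less RNA per cell cannot be told apart either.

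The 2 libraries of replicate number 6 went against their labels and took no part in the choice of members. The library labelled PBS 6 held a share of reads in the members within the range of Noggin 1 to 5, and that labelled Noggin 6 held a share between the ranges of the 2 beads. Results are given for numbers 1 to 5, with the number 6 libraries under their deposited labels beside them. Numbers 1 to 5 were set apart with this behaviour already known. Depth in numbers 1 to 5 was higher on average with Noggin, at a mean of 2737412 reads against 2110017 with PBS. The ranges overlapped, at 2019491 to 3513398 reads with Noggin and 1624309 to 2767417 reads with PBS. Number 1 alone had the other order, at 2567768 reads with Noggin and 2767417 with PBS. In number 6 the library labelled Noggin had 1946971 reads and that labelled PBS 2317148. The part of depth in the results was not tested.

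Of the 1219 genes of at least 100 CPM, 73 (5.99%) had every Noggin library of numbers 1 to 5 below every PBS library, and 165 had every Noggin library above. The 55 members are the 73 without 18 genes that lay more than 2-fold lower. On the other side, 153 genes were raised without overlap by at most 2-fold and 12 by more. The mean of the Noggin libraries was below that of the PBS libraries in 445 of the 1219 genes and above it in 774, with a median difference of 0.06 on the log2 scale. Small falls among abundant genes were thus fewer than small rises, and they lay against a median that leaned slightly upwards.

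**Figure D1:**
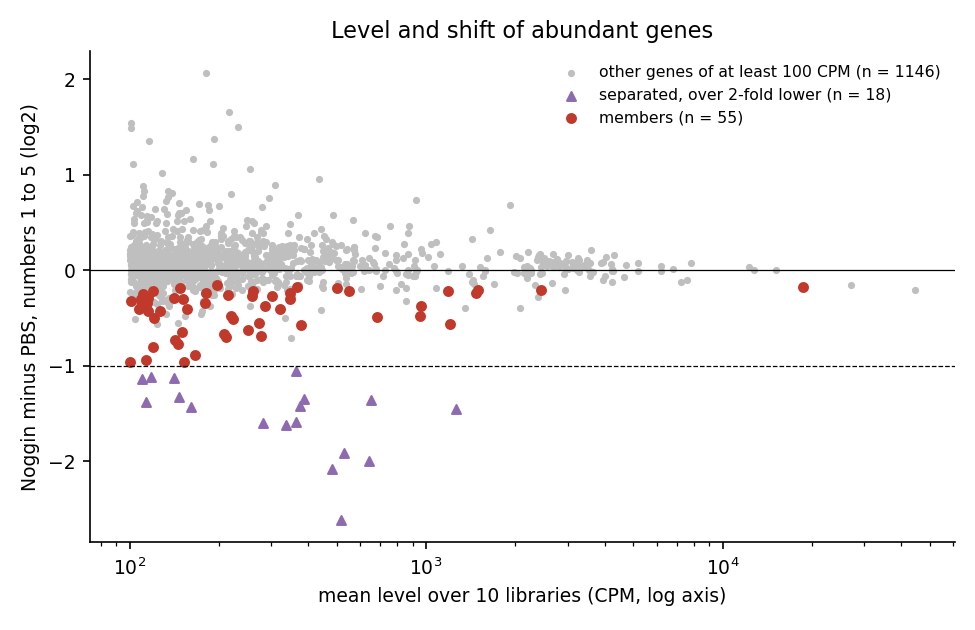
Each point is 1 of the 1219 genes averaging 100 CPM or more: its mean level over the 10 libraries of numbers 1 to 5 (CPM, log axis) against the difference between Noggin and PBS means (log2(CPM + 1) scale). The 55 members (red) lie between -0.96 and -0.16, above the dashed limit of -1, and the 18 genes below that limit are the ones that fell out of the rule for the size of their difference.

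The rule bounds the difference on both sides but sets no upper limit on level, so the members span a wide range of levels. Their mean levels ran from 100.03 to 18681 CPM, with a median of 207 CPM and quartiles of 124 and 348 CPM. The differences on the log2 scale ran from -0.96 to -0.16, with a median of -0.35, quartiles of -0.56 and -0.25, and an SD over the members of 0.22. In percent of the PBS level, the median loss was 21.6%, with quartiles of 15.8% and 32.4%. A loss of under 20% was found in 24 members, one of 20% to 40% in 25, and one of more than 40% in 6.

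Level and difference were not closely related, and the smallest differences stood at higher levels. The 17 members with a difference below -0.5 had a median level of 166 CPM and lost a median of 38.2% of their PBS level. The 24 members between -0.5 and -0.25 had a median level of 154 CPM and lost 21.2%. The 14 members above -0.25 had a median level of 434 CPM and lost 14%. Grouped by level, the median difference was -0.35 in the 27 members below 200 CPM, -0.39 in the 22 between 200 and 1000 CPM, and -0.21 in the 6 of at least 1000 CPM. Across the 55 members the rank correlation of level with difference was 0.305, against -0.0296 across all 1219 abundant genes. These correlations are across genes measured in the same libraries, and the rule lets a small difference through more easily where counting error is low, so they are given as a description.

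The limits of the rule were close on each side. The lowest member by level had a mean of 100.03 CPM, and the nearest gene with the same separation below the limit had 98.6 CPM. The largest fall among members was -0.96, and the nearest gene past the limit stood at -1.06. The gap between the lowest PBS and the highest Noggin library was under 0.05 on the log2 scale in 18 members and 0.0012 in the narrowest, and a further 31 abundant genes with a fall overlapped by less than 0.05. Membership at this edge is thus a matter of small differences between single libraries.

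**Figure D2:**
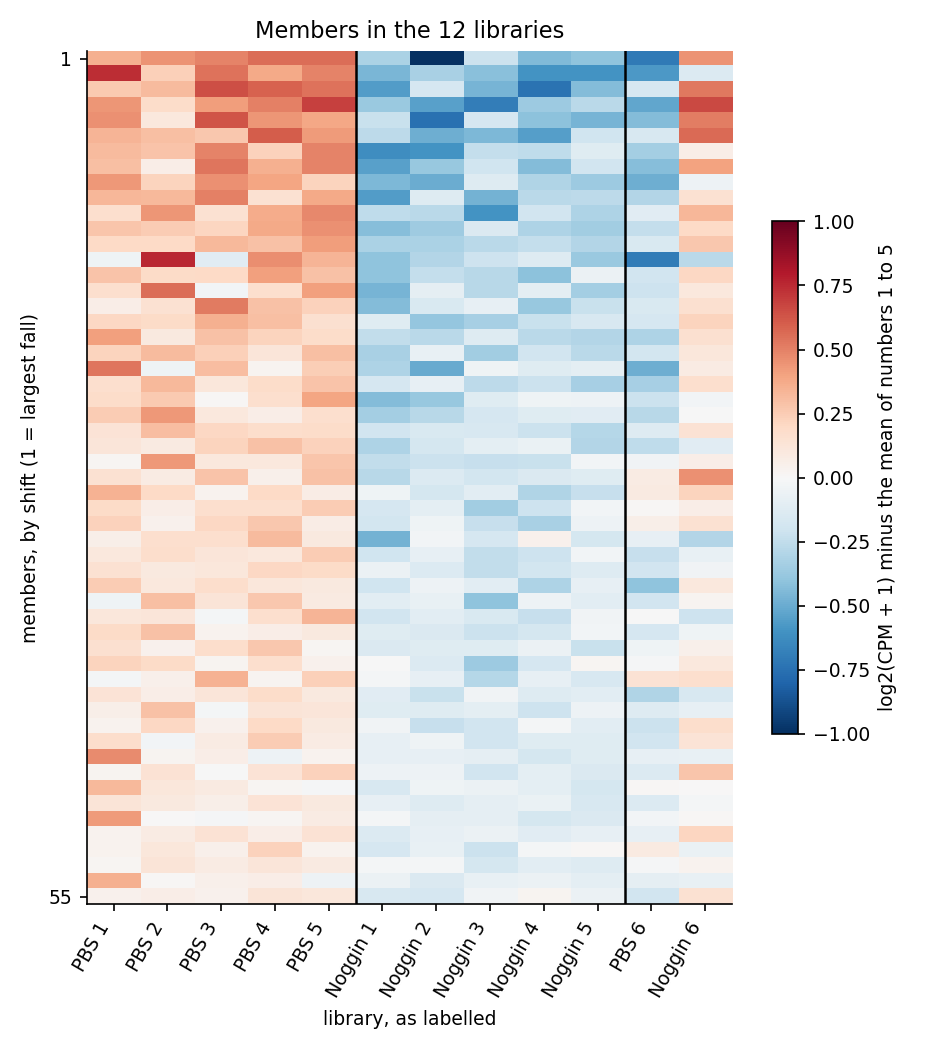
The 55 members (rows, ordered by their difference between Noggin and PBS) in the 12 libraries (columns, as labelled), coloured by log2(CPM + 1) minus the mean of the 10 libraries of numbers 1 to 5. The first 5 columns lie above the next 5 in every row, which the rule requires; in the last 2 columns, which the rule did not use, the library labelled PBS 6 is lower than that labelled Noggin 6 in 51 rows.

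The share of reads held by the members was 4.67%, 4.12%, 4.08%, 4.18% and 4.03% in the PBS libraries numbered 1 to 5. In the Noggin libraries of the same numbers it was 3.51%, 3.4%, 3.51%, 3.52% and 3.48%. The Noggin libraries lay close together, and PBS 1 stood above the other PBS libraries. The means were 4.21% ± 0.26 with PBS and 3.48% ± 0.05 with Noggin (SD, n = 5 each), a difference of -0.73 percentage points, or 17.4% of the PBS share. The direction of this difference is fixed by the rule. Within numbers, it was largest in number 1 (-1.16 points) and smallest in number 5 (-0.55 points).

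Over all 10 libraries, these 55 genes together gave up about as many reads as the 18 abundant genes that were more than 2-fold lower. This likeness leaned on PBS 1 and on 1 member. The difference of the members was -0.618 points without PBS 1 and -0.498 points without the most abundant member. Those 18 went from 1.05% ± 0.06 of the reads with PBS to 0.348% ± 0.05 with Noggin (SD, n = 5 each), a difference of -0.70 points. The members started from a share about 4 times as large and lost a smaller part of it, 17.4% against 66.9%. The 153 slightly raised genes went the other way, from 5.78% ± 0.08 to 7.16% ± 0.15 of the reads, a difference of 1.38 points. The 1219 abundant genes as a whole held 73.1% ± 0.49 of the reads with PBS and 73% ± 0.58 with Noggin, a difference well inside the spread between libraries. These sets were all chosen on the same contrast, so their shares are set side by side without a test.

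The loss of reads was concentrated in a few members. The most abundant one accounted for 31.9% of the summed difference of -7312 CPM, the 5 largest losses for 51.4% and the 10 largest for 65.4%. With PBS the most abundant member held 1.98% of the reads, out of 4.21% for all members. Its part of the loss was thus smaller than its part of the members' reads. The second largest loss, a difference of -489 CPM, came from the member ranked 5 by level, which went from 1444 to 955 CPM. The third, -367 CPM, came from the member ranked 2, at 2622 CPM with PBS and 2255 CPM with Noggin. The member ranked 5 had its highest level in PBS 2, at 1952 CPM. Leaving out PBS 2, its difference was -362.1 CPM, rank 3 by loss. Both the first and the third loss depended on PBS 1. Without it the most abundant member accounted for 21.7% of a summed difference of -6182 CPM, with -1340 CPM of its own. The member ranked 2 then had a PBS mean of 2465 CPM (n = 4) and a difference of -209.6 CPM, the seventh largest. The 6 members of at least 1000 CPM held 52.4% of the loss, the 22 between 200 and 1000 CPM 31.7%, and the 27 below 200 CPM 15.9%. The last group is the largest in number and the smallest in reads.

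The member with the highest level was ENSGALG00010012589, the third most abundant gene of the whole table. Its function is not given here because the identifier could not be paired with a symbol. It stood at 23823, 18748, 19241, 19458 and 17971 CPM in the PBS libraries numbered 1 to 5, and at 17867, 16832, 17625, 17846 and 17404 CPM in the Noggin libraries. PBS 1 was far above the other PBS libraries, and PBS 5 lay just above Noggin 1, the highest Noggin library. The means were 19848 ± 2294 CPM with PBS and 17515 ± 425.8 CPM with Noggin (SD, n = 5 each), a loss of 11.8%. Without PBS 1 the PBS mean was 18854 ± 660 CPM (SD, n = 4) and the loss 7.11%, so a single library carried a large part of the difference in CPM. Number 6 gave 17633 CPM under the Noggin label and 17512 CPM under the PBS label, a difference of 0.01 on the log2 scale. Both lie within the range of the Noggin libraries numbered 1 to 5.

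The genes next to it in level did not separate by bead. The 2 genes above it, with means of 44748 and 27075 CPM, had differences of -0.20 and -0.15 on the log2 scale. Their lowest PBS and highest Noggin libraries overlapped, with gaps of -0.28 and -0.06. The 2 genes below it, at 15142 and 12773 CPM, had differences of 0.00 and gaps of -0.42 and -0.28. The 2 genes above thus had differences of similar size, and the separation of the member rested on a gap of 0.01.

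**Figure D3:**
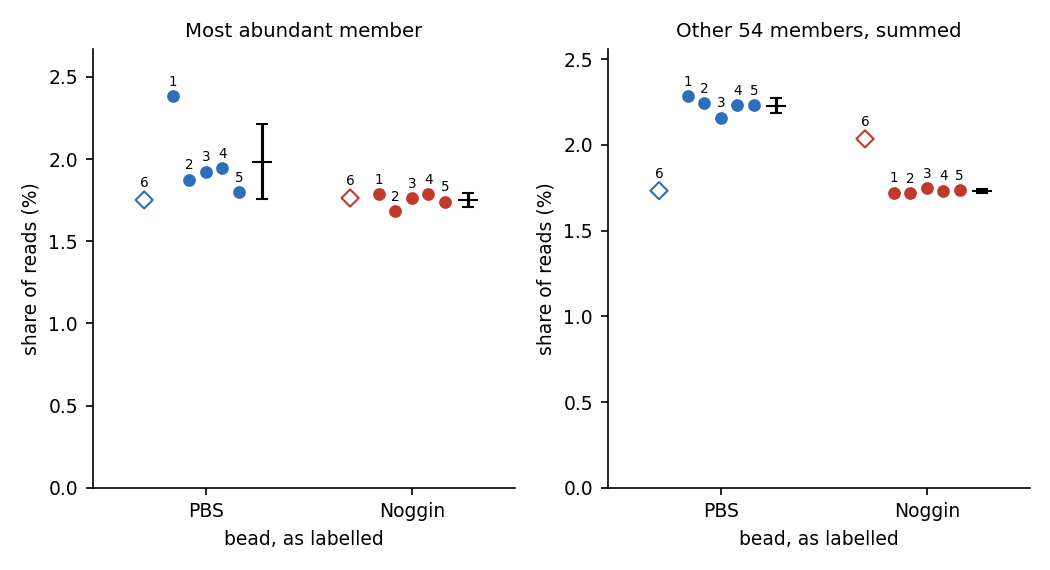
Share of reads (percent, axes from 0) held by the most abundant member (left) and by the other 54 members summed (right) in each library, as labelled. Filled circles are numbers 1 to 5, with the mean and SD as a black bar (n = 5), and open diamonds are the libraries labelled 6; on the left PBS 1 stands apart at 2.38%, and on the right the library labelled PBS 6 lies at the level of the Noggin libraries.

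Without the most abundant member the picture was more even. The other 54 members together held 2.28%, 2.24%, 2.16%, 2.23% and 2.23% of the reads in PBS 1 to 5, and 1.72%, 1.72%, 1.75%, 1.73% and 1.74% in Noggin 1 to 5. The means were 2.23% ± 0.045 and 1.73% ± 0.011 (SD, n = 5 each), a loss of 22.3% of the PBS share. No PBS library stood apart, and without PBS 1 the loss was 21.9%. No single library was behind the extremes of the members. PBS 1 to 5 were each the highest PBS library in 10 to 12 members and the lowest in 6 to 15. Noggin 1 to 5 were each the lowest Noggin library in 6 to 15 members and the highest in 7 to 15. The rule fixes the separation of these sums and favours a small spread, so their evenness is a description.

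The widest gap belonged to ENSGALG00010018226, a gene of middle rank among the members (34 by level). It stood at 184.3, 196.3, 203.2, 211.9 and 212.3 CPM in PBS 1 to 5, and at 115.3, 69.4, 123.8, 105.6 and 108.7 CPM in Noggin 1 to 5. The lowest PBS library lay 0.57 on the log2 scale above the highest Noggin library, and Noggin 2 was the lowest of all. The means were 201.6 ± 11.8 CPM with PBS and 104.6 ± 20.8 CPM with Noggin (SD, n = 5 each), a loss of 48.1% and a difference of -0.96 on the log2 scale, the largest among the members. Between 244 and 516 reads stood behind each of these values. In number 6 the library labelled Noggin held 196.7 CPM, inside the PBS range, and that labelled PBS held 87.6 CPM, inside the Noggin range.

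**Figure D4:**
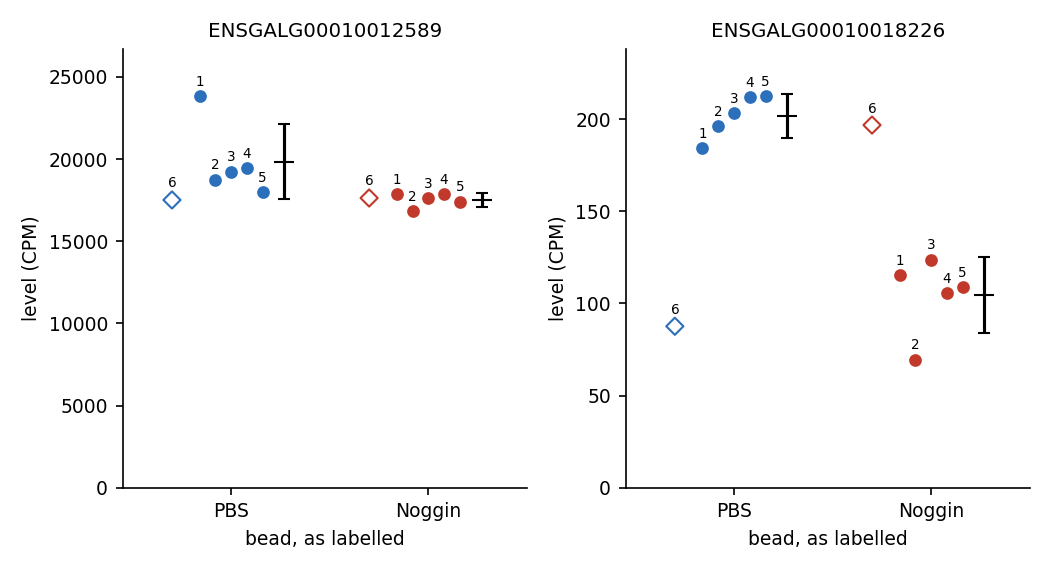
Level (CPM, axes from 0) of the most abundant member (left) and of the member with the widest gap (right) in each library, as labelled. Filled circles are numbers 1 to 5, black bars the mean and SD (n = 5), and open diamonds the libraries labelled 6; the left gene differs by 11.8% with a gap of 0.01, the right gene by 48.1% with a gap of 0.57 on the log2 scale.

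The spread between libraries of a group was larger than counting error in most members. The lowest read number of any member in any of the 12 libraries was 142. Counting error alone gives a median SD of 0.067 on the log2 scale, and the median SD within groups was 0.11, with a range of 0.036 to 0.266. The ratio of the observed SD to the counting SD had a median of 1.68 over the members and 1.88 over all 1219 abundant genes. It was below 1 in 5 members and above 2 in 20. In the 6 members of at least 1000 CPM the median ratio was 5.36, and in ENSGALG00010012589, where counting error is smallest, it reached 16.3. The rule favours genes with a small spread, so the lower ratio of the members is a description. The sources used here do not say whether reads were collapsed to unique molecules, so counting error is a lower bound on technical error.

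A fit across the whole table put the members beside all other genes. In numbers 1 to 5, limma on log2(CPM + 1) called 1114 of 10608 tested genes at a Benjamini-Hochberg adjusted p below 0.05, with 636 higher and 478 lower with Noggin. The lower calls are 4.51% of the tested genes and 7.22% of those of at least 100 CPM. Of the 55 members, all of which entered the test, 48 were among the lower calls. The rule had used this contrast, so nothing is read from that count. The remaining 7 included the members ranked 1, 2 and 5 by level. ENSGALG00010012589, ranked 1, had a difference of -0.18 ± 0.068 (SE) on the scaled log2 values and an adjusted p of 0.149 (limma). This fit left out the replicate number. With the number as a block, 1472 genes were called, 649 of them lower (6.12% of the tested genes), and this member passed the threshold, with an adjusted p of 0.028 (limma). Without PBS 1 and without the block, its difference was smaller, at -0.12 ± 0.03 (SE), and passed the threshold, with an adjusted p of 0.00559 (limma). The rule had chosen this member on the same contrast, so nothing is read from its adjusted p-values. With number 6 added under its labels, 12 genes were called in all and 0 members (limma, adjusted p), and 7 of the 12 (0.066% of the tested genes) were lower. At an unadjusted p below 0.05 that fit had 1425 genes, of which 645 (6.08% of the tested genes) were lower, among them 45 members. The rule had used 10 of these 12 libraries, so nothing is read from the 45 either.

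The replicate number was examined next. The rule did not use it as such, but separation by bead limits how far a member can vary between numbers. With the bead as a term in the model, an F test of numbers 1 to 5 (limma, Benjamini-Hochberg over all tested genes) called 224 of 10608 genes (2.11%) and 75 of the 1219 abundant genes (6.15%). Among the members it called 1 of 55, and 11 lay below an unadjusted p of 0.05, near the share of all abundant genes at that limit (236 of 1219, 19.4%). The member called was the one ranked 2 by level, with an adjusted p of 0.00453. Its scaled level, averaged over the 2 libraries of a number, was 11.44 on the log2 scale in number 1 and 11.13 to 11.22 in numbers 2 to 5. The range between numbers had a median of 0.20 on the log2 scale over the members and 0.23 over the abundant genes. A gene that varies much between numbers can hardly separate by bead, so a low count of members is built into the rule.

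The same rule was also applied to 4 of the 5 numbers at a time and read in the number left out, which the choice had then not used. It chose 73 genes without number 1, of which 68 (93.2%) were lower with Noggin in number 1, against 43.7% of all abundant genes. Without number 2 it chose 88, of which 78 (88.6%) were lower there, against 34.6%. For number 3 the count was 64 of 69 (92.8%, against 42.8%), for number 4 59 of 64 (92.2%, against 44%), and for number 5 70 of 77 (90.9%, against 32.6%). Each of these lists held 53 to 55 of the 55 members. The members make up most of each list, and they are the genes that were lower with Noggin in every number. The counts are therefore a description of numbers 1 to 5. These numbers had been kept for the rule with the behaviour of all libraries known, so this is not a replication in fresh libraries. In the number kept out of the rule, 4 of the 55 members were lower under the Noggin label.

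The size of the fall was somewhat smaller where it had not been used for the choice, in 4 of the 5 numbers. The chosen genes had median differences of -0.33 to -0.30 on the log2 scale in the 4 numbers that chose them. In the number left out the medians were -0.31, -0.21, -0.28, -0.33 and -0.28 for numbers 1 to 5. Number 4 was the exception, at -0.33 against -0.30. The medians of all abundant genes in the same numbers were 0.03 to 0.09. For the members themselves, the median difference within numbers 1 to 5 was -0.42, -0.38, -0.36, -0.36 and -0.34, with quartiles no lower than -0.63 and no higher than -0.20. The rule used these values and fixes their direction, so their closeness is a description. The 5 numbers had also been set apart from number 6 with its behaviour known.

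The libraries of number 6 took no part in the choice of members and gave the opposite order under their labels. The library labelled Noggin 6 was higher than that labelled PBS 6 in 51 of the 55 members (92.7%), against 45.2% of all 1219 abundant genes. It was also higher in all 18 abundant genes lowered more than 2-fold. Of the 153 slightly raised genes 134 were lower in it, as were all 12 raised more than 2-fold. The opposite order was thus not particular to the members. The median difference over the members was 0.30 on the log2 scale, with quartiles of 0.11 and 0.44 and a range of -0.21 to 1.18. Over all abundant genes it was -0.02. With 1 library of each label there is no test of this difference.

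**Figure D5:**
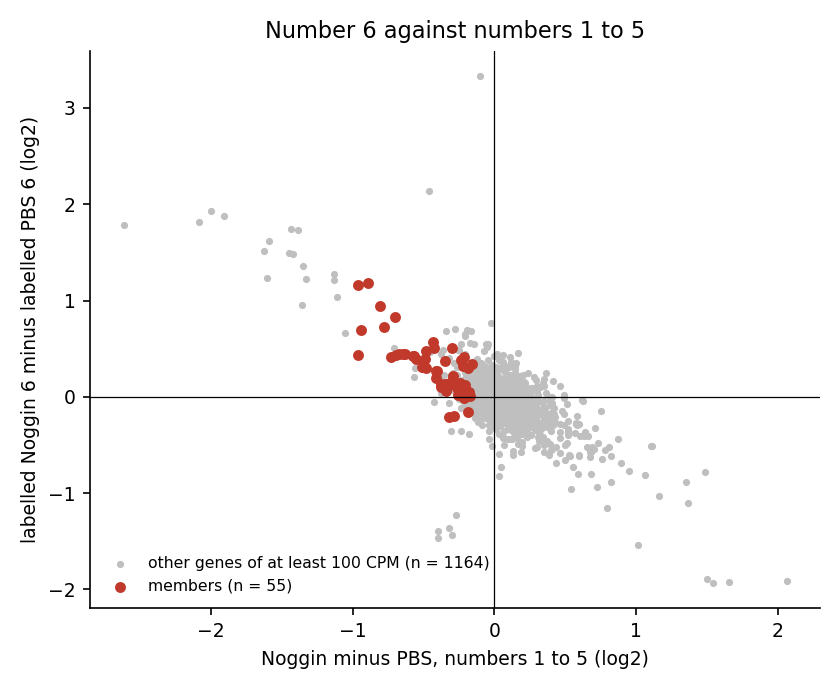
Difference between the libraries labelled Noggin 6 and PBS 6 against the difference of the group means in numbers 1 to 5, both on the log2(CPM + 1) scale, for the 55 members (red) and the other 1164 genes of at least 100 CPM (grey). The members fall with the rest of the genes along a line of negative slope, and 51 of the 55 lie above 0 on the vertical axis.

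The position of both number 6 libraries could be read against the others. In 45 members the library labelled Noggin 6 lay above all 5 Noggin libraries numbered 1 to 5, against 225 of the 1219 abundant genes. In 48 members the library labelled PBS 6 lay below all 5 PBS libraries, against 274 of the 1219. Both held in 40 members (72.7%), against 97 of the 1219 abundant genes (7.96%). The rule chose members with separate ranges and favours a small spread within a bead, so these counts are a description. In 34 members the library labelled Noggin 6 reached the PBS range, in 41 the library labelled PBS 6 reached the Noggin range, and in 23 both did. The ranges of the beads overlapped in 981 of the 1219 abundant genes, where such counts have no like meaning. No share over all abundant genes stands beside the counts of 34, 41 and 23, so nothing is read from them. The members' share of the reads was 3.8% in the library labelled Noggin 6 and 3.48% in that labelled PBS 6. The second value equals the Noggin mean of numbers 1 to 5 in print, and the first lies between the ranges of the 2 beads.

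Members with a larger fall in numbers 1 to 5 differed more in number 6. All 17 members below -0.5 were higher in the library labelled Noggin 6, by 0.31 to 1.18 on the log2 scale with a median of 0.44. Between -0.5 and -0.25 the count was 22 of 24, with a median of 0.16, and above -0.25 it was 12 of 14, with a median of 0.08. Across the 55 members the difference in number 6 and that in numbers 1 to 5 had a Pearson r of -0.781 and a rank correlation of -0.742, and across the 1219 abundant genes -0.735 and -0.557. These are correlations across genes that share the same 12 libraries. The difference in number 6 was, at the median member, -0.617 times that in numbers 1 to 5. The same ratio was -0.600 over all 1219 abundant genes, near that of the members. The divisor is the difference in numbers 1 to 5, on which the rule chose the members. Over all abundant genes this divisor had a median of 0.06 and quartiles of -0.06 and 0.17, close to 0. Nothing is therefore read from the likeness of the 2 ratios. The ratio was -0.973 over the 18 genes lowered more than 2-fold and -0.656 over the 153 slightly raised genes. The difference between these ratios was not tested.

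The 4 members that kept the labelled order in number 6 all had narrow gaps. They ranked 6, 37, 40 and 54 by level, and the gap between their PBS and Noggin libraries in numbers 1 to 5 was 0.01 to 0.03 on the log2 scale. A gap under 0.05 was found in 18 of the 55 members, so most members with such a gap had the opposite order in number 6. The member ranked 6 had 1181 CPM under the label Noggin 6 against 1191 CPM under PBS 6, nearly the same level. The member ranked 37 stood at 140.7 and 156.7 CPM, that ranked 40 at 121.2 and 139.4 CPM, and that ranked 54 at 81.7 and 94.5 CPM. Over all 12 libraries as labelled, 2 of the 55 members kept every Noggin library below every PBS library. Among all 1219 abundant genes the count was also 2, and these were the same 2 genes. Such a gene must already be separated in numbers 1 to 5, on which the rule chose the members. Nothing is therefore read from this count.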

How the data were processed

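RNA was measured in 12 libraries made from 180 ng of total RNA with the Lasy-Seq protocol, per the labels' protocols. Salmon, BWA 0.7.17-r1188 and fastp 0.21.0 appear in the submitters' processing notes. Build, annotation, counting options and any molecular identifiers were not given in the sources used here. The deposited values are natural logs, for which the exponential minus 1 sums to 1000000 in each column, so they were read as the natural log of (CPM + 1), a unit inferred from the values. All values above 0 were whole multiples of 1 read, within 0.001 read, so reads could be recovered.

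Columns were matched to libraries by the codes in the labels, and groups and numbers were taken from the titles. The members, gene lists and tests were chosen with earlier results of these data known. Members were picked on unscaled CPM with a pseudocount of 1. The fit over all genes used limma 3.58.1 in R 4.3.3 (trend, robust) on log2(CPM + 1) after TMM scaling (trimmed mean of M-values, own implementation over the tested genes; 30% of log ratios and 5% of levels trimmed), with the group alone in the model. The design had named limma for log values, and a test for counts otherwise. Genes were tested where 5 or more of the 10 libraries had 4.23 CPM, which is 10 reads in a library of median depth, and the total was 15 reads or more; these 10608 genes held 98.9% of the reads. The steps were tested on simulated data. A count of 0 allows up to 0.854 to 1.85 CPM (3 reads, counting error only).

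Identifiers were printed by rule for the most abundant member and the member with the widest gap; other members are given by rank. None of the 30108 identifiers (0) was found in the RefSeq gene table, so 21 lists of 673 genes, pathway members and markers of other cell types, could not be looked up, and no sequence is shown. No 2 libraries were duplicates (chi-square per degree of freedom of at least 2.78 over 66 pairs). The labels do not say that libraries came from separate embryos, so the p-values reflect only sample-to-sample spread here, which may be technical. Alternatives were other scalings, filters, pseudocounts and level limits, limma-voom, the replicate block, and leaving out libraries. The tests of the replicate number and of left-out numbers were added after the data were seen.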

Additional observations from a re-analysis of the deposited data

Results flagged for a closer look

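A library far from the rest of its group was found in 9 of the 20 sets of values tested. By chance about 1 set in 20 is marked where the values had no part in the choice of genes. The rule chose genes on numbers 1 to 5 and favours a small spread there, so this rate does not hold for sets of such genes. The groups overlap in libraries and genes, so these 9 are not independent. Among the PBS libraries numbered 1 to 5, PBS 1 stood apart in the share of reads of the members, at 4.67% against 4.03% to 4.18% in the others. It also stood apart in the most abundant member, at 2.38% of the reads against 1.8% to 1.95%, and did so again with PBS 6 as labelled added, where the lowest value was 1.75%.

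The other distant libraries were those numbered 6, in groups of 6 as labelled. The library labelled Noggin 6 held 3.8% of its reads in the members, against 3.4% to 3.52% in Noggin 1 to 5. In the members without the most abundant it held 2.04%, against 1.72% to 1.75%, and in the 18 abundant genes lowered more than 2-fold 0.99%, against 0.291% to 0.417%. The library labelled PBS 6 held 1.73% of its reads in the members without the most abundant, against 2.16% to 2.28% in PBS 1 to 5, and 0.355% in the 18 genes, against 0.986% to 1.13%. In ENSGALG00010018226 the library labelled PBS 6 stood at 87.6 CPM, against 184.3 to 212.3 CPM.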

How the results depend on the processing

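The rule gave 57 to 77 members without 1 library, 59 under TMM, 61 under median-of-ratios and 66 under upper-quartile scaling (50, 51 and 52 of them shared with the 55), 120 with a limit of 50 CPM, 28 with 200 CPM, 88 without number 2, and 2 with number 6 as labelled. The difference in the members' share of reads was -0.778 to -0.618 points without 1 library and -0.498 without the most abundant member. The median difference on the log2 scale was -0.37 to -0.35 without 1 library. In number 6, 11 of 120 members (50 CPM) and 1 of 28 (200 CPM) were lower in the library labelled Noggin 6. Limma called 909 to 1115 genes and 40 to 50 members without 1 library, 12 genes and 0 members with number 6 as labelled (1425 genes at an unadjusted p below 0.05), and 0 genes and 0 members with the replicate block added to that (1318). Lower calls without 1 library were 3.74% to 4.44% of the tested genes. The rule had used this contrast, so nothing is read from the counts of members.

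The numbers were not taken as pairs, since the lowest same-numbered correlation of deviations was 0.0842 over all tested genes, under the limit of 0.1; it was 0.179 over genes of at least 20 CPM, 0.275 over those of at least 100 CPM and -0.0677 over the members. Over all tested genes the best correlate of each library was the one sharing its number, in 10 of 10. The highest other correlation was 0.0127 there, and 0.134 with the limit of 100 CPM, each below the lowest same-numbered value of its set. Over the members alone 5 of 10 libraries matched their number, and the highest other correlation was 0.325. The members' same-numbered values were 0.188, 0.191, 0.239, -0.0677 and 0.262 in numbers 1 to 5. Over all tested genes, same-numbered libraries thus shared deviations, a sign of pairing that the fit with the group alone leaves out. With the replicate block, numbers 1 to 5 gave 1472 genes (limma), of which 649 (6.12% of the tested genes) were lower, among them 50 members. The rule had used this contrast, so nothing is read from the 50. The adjusted p of ENSGALG00010012589 was 0.028 in that fit (limma), from which nothing is read for the same reason. The cause of these differences was not tested. Depth limits the members to a median counting SD of 0.067 on the log2 scale.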
